A study of Mus musculus with 24 samples.

Results

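Long intergenic non-coding RNAs (lincRNAs) are spliced or unspliced transcripts that carry no long reading frame and lie between protein-coding genes. Described here are the lincRNAs that were well measured in mouse brain microvessels after experimental stroke, taken as the genes with the Ensembl biotype lincRNA and a mean above 50 normalized counts over all 24 libraries. This gave 86 of the 484 lincRNAs in the table, which lists 17270 genes. The other lincRNAs had means from 5 to 50 (273 genes) or up to 5 (125 genes). The 86 were thus selected on the mean of the same libraries that are described, and the height of their levels is a description. The lowest of the 86 were CT009718.1 with a mean of 51.5, 9330102E08Rik with 50.5 and AC160334.3 with 50.2. Just below the limit lay Gm36823 with 48.8, Gm38399 with 48.1 and 2610300M13Rik with 47.6. Without the libraries of their highest group, 3 of the 86 would have had a mean of 50 or less, and 64 had a mean above 50 in every group.

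All mice were male C57BL/6J animals of 10 to 12 weeks with no engineered allele named in the labels. They underwent transient occlusion of the right middle cerebral artery (tMCAO) for 60 min or sham surgery, in which the filament was withdrawn at once, and were killed after 24 h or 7 d. Microvessels were isolated separately from the ipsilateral and the contralateral hemispheres, so that 8 groups of 3 libraries arose, and each library held the vessels of 3 pooled hemispheres. The contralateral hemispheres came from operated animals and are not naive tissue. The labels number the libraries but do not tie a number to animals. The p-values measure the spread between the pools that were kept, which can be narrower than that between all pools made.

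The preparation is not pure endothelium. All 8 endothelial genes of the marker list (such as Cldn5 and Pecam1) were abundant, with a panel mean between 14.54 and 15.12 on the log2(normalized count + 1) scale in every library. All 9 neuronal genes (such as Snap25 and Syt1) were also detected in every library, with panel means between 6.95 and 10.93. Values are read counts that the authors scaled between libraries and rounded, so the original depth is unknown. Their totals ran from 15924780 to 18787932 a library, of which the 86 lincRNAs took 0.130% to 0.170% once the ribosomal RNA-like Gm42418 was set aside. In bulk RNA, fewer cells of a type and less RNA per cell cannot be told apart.

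LincRNAs act in several ways. Some build nuclear bodies, as Neat1 does for paraspeckles, whereas Malat1 gathers in nuclear speckles beside splicing factors. Others hold proteins or small RNAs: Norad binds PUMILIO proteins, and Cyrano (listed here as 1700020I14Rik, Oip5os1 in RefSeq) pairs with the microRNA miR-7 and brings about its decay. A further kind serves as the precursor of microRNAs (Mir124a-1hg) or small nucleolar RNAs (the Snhg genes), or acts on genes nearby, as Morrbid (listed as Gm14005) does on the pro-apoptotic gene Bcl2l11 in myeloid cells. In the brain, Meg3, Miat and the miR-124 host gene are known mainly from neurons.

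The sequences below belong to lincRNAs to which the results return. The first pair shows miR-7a with its seed (bases 2 to 8) in capitals and the stretch of Cyrano from base 2952 of transcript ENSMUST00000153581.1 that holds the complement of that seed in capitals. Beyond the seed match, 14 of 15 bases of this stretch could pair with miR-7a at the best offset tried, against 4 of 15 for the other seed match, in the stretch from base 762.
mmu-miR-7a-5p: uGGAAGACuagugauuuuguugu
Cyrano, base 2952: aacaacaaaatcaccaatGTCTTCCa
Cyrano, base 762: tcaggttttttttttaatGTCTTCCa

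Norad (listed as 2900097C17Rik) and Miat are shown for the repeated elements they carry. PUMILIO elements, searched as TGTANATA on the transcript's own strand, numbered 11 in the Norad transcript of 4915 bases, or 2.24 per kb. Over the 5854 lincRNAs of GENCODE M21, the density was 0.123 per kb and 13.9% held at least 1. The branch-point-like letters TACTAAC, through which Miat is known to hold a splicing factor, occurred 6 times in the Miat transcript of 9163 bases, or 0.655 per kb, against 0.0285 per kb over all lincRNAs, of which 3.72% held at least 1. Capitals mark the elements in bases 1498 to 1647 of Norad and 4941 to 5090 of Miat.
Norad: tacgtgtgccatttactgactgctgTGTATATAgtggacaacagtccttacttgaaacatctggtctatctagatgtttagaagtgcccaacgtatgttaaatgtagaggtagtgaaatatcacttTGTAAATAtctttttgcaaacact
Miat: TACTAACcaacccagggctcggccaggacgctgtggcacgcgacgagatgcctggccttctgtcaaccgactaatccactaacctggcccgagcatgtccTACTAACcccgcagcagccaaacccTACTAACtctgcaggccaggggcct

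For 3 lincRNAs whose level differed after tMCAO, the RefSeq promoter (250 bases before to 50 after the start, build GRCm38.p6) is given with the motifs found on either strand in capitals. Morrbid (chr2:128429302-128429601, minus strand) and D730003I15Rik (chr1:191224204-191224503, plus strand), which moved in opposite directions at 24 h, both held an AP-1 motif (TGACTCA) and an ETS motif (CCGGAAG). D730003I15Rik also held an E-box (CACGTG). The first of the Meg3 promoters that RefSeq lists (chr12:109540746-109541045, plus strand) held a cyclic AMP response element (TGACGTCA) and a TATA box (TATAAA) that overlaps its own reverse complement. Of all 32851 promoters of this length, 5.2% held the AP-1 motif, 8.86% the ETS motif, 7.15% the E-box, 1.79% the cyclic AMP response element and 13.6% the TATA box. A match is only a match of letters.
Morrbid: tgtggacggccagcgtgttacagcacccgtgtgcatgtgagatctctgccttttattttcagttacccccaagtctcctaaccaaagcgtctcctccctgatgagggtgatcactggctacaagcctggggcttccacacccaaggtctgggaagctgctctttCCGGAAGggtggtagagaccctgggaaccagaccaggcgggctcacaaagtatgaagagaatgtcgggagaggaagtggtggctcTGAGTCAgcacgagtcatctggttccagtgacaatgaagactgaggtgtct
D730003I15Rik: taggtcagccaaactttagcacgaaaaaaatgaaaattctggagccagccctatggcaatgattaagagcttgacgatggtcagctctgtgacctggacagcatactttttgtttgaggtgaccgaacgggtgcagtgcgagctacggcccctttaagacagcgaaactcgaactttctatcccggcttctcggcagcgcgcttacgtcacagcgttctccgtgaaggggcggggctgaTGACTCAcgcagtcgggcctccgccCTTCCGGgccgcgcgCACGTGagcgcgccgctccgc
Meg3: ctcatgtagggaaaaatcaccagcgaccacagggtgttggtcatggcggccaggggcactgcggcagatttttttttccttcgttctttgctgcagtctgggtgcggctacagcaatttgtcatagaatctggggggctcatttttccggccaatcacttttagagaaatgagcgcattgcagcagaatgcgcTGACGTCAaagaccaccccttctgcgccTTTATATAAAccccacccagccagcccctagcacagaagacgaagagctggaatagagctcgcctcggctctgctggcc

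Position and annotation of the 86 lincRNAs varied widely. GENCODE M21, a later annotation of the same build, held 85 of them and typed 77 as lincRNA. RefSeq matched 65, of which 58 were typed as long non-coding RNA. A few are not clear-cut lincRNAs: 6330403K07Rik is protein-coding in both annotations, and RefSeq calls Tmem250-ps protein-coding and Gm42418 a pseudogene (Rn18s-rs5). The genes lay on 20 chromosomes, with a median of 2970 exon bases (430 to 20771) and 22 with a single exon block. Of the 86, 11 overlapped a protein-coding gene and a further 34 lay within 5 kb of one, 14 of them divergent from it. Whether the counting used the strand is not stated in the sources used here, so for overlapping pairs on opposite strands reads of the partner could enter the count.

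Mean levels were above 1000 normalized counts for 6 of the 86, from 100 to 1000 for 38 and from 50 to 100 for 42, with a median of 101. The highest were Gm42418, Cyrano with 5367, Malat1 with 1482, Neat1 with 1465 and Tmem250-ps with 1425. Per kb of exon, and with Gm42418 set aside, the order changed: Bvht, which is known from heart development as Braveheart, had 1272 normalized counts per kb, AW112010, an RNA of immune cells, had 1120, and Cyrano had 646.2. On the same scale Malat1 had 212.2, Norad 222, Neat1 70.55, Meg3 53.26 and Miat 9.994. Gm42418 had a median of 24261 but reached 143986 in 1 library, sham contralateral 7 d replicate 1, and 53918 in replicate 3 of that group. The plot of levels shows the whole range of each lincRNA.

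**Figure D1:**
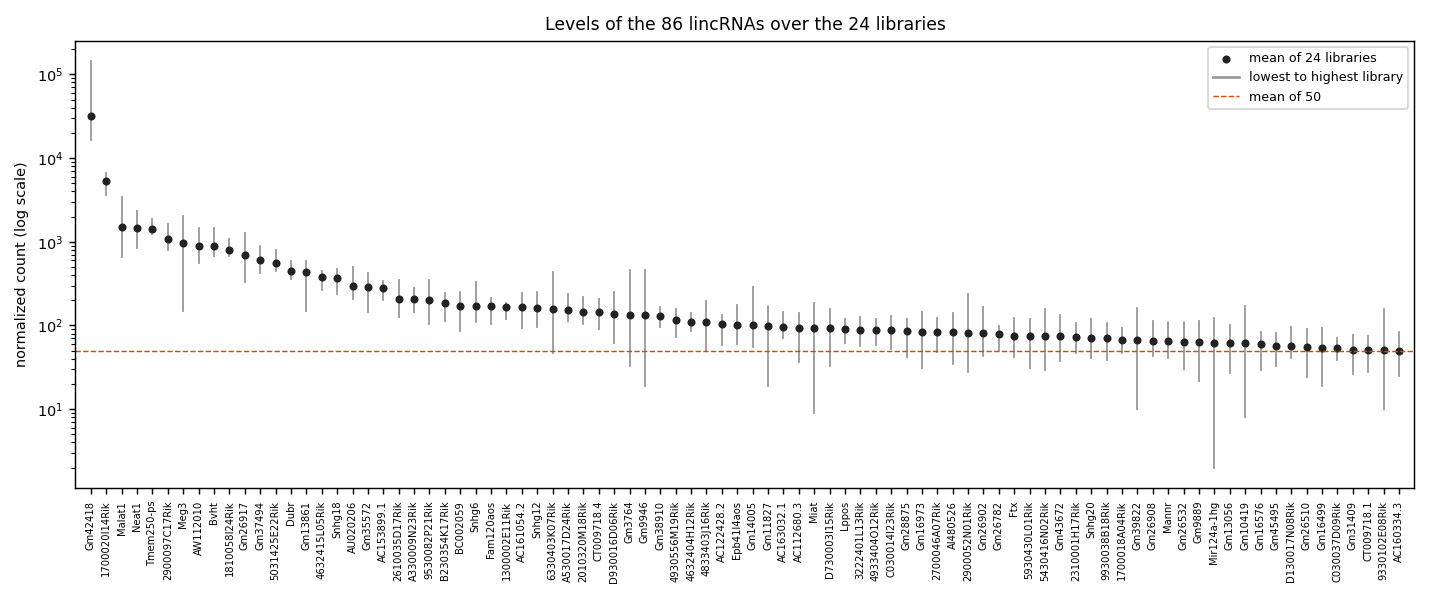
Normalized counts (log axis) of the 86 lincRNAs, ordered by their mean. Points are means of the 24 libraries, grey lines run from the lowest to the highest library, and the dashed line marks the mean of 50; Mir124a-1hg, Miat, Gm10419 and 9330102E08Rik reach far below their means.

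Over the 8 groups, the ratio of the highest to the lowest group mean had a median of 1.68, was under 1.5 for 29 lincRNAs and above 2 for 26. It was largest for Mir124a-1hg with 19.4, Gm9946 with 12.2, 9330102E08Rik with 8.24, Gm10419 with 6.74 and Miat with 5.28. At the other end stood 4632404H12Rik with 1.10, Gm26782 with 1.17 and Dubr with 1.20. By the F test of limma over the 8 groups, 30 of the 86 (34.9%) had an adjusted p under 0.05, beside 39.4% of all 15982 genes tested. The lowest group mean was that of tMCAO ipsilateral 24 h for 33 lincRNAs, more than for any other group. The same group had the highest mean for 11 lincRNAs. These counts were not made over all genes, so they do not set lincRNAs apart from other genes.

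Stroke was compared first with sham surgery in ipsilateral vessels at 24 h. A gene was called when the adjusted p was under 0.05 and the levels differed by more than 1.5-fold on the log2(normalized count + 1) scale. Morrbid, Gm26917 and Snhg6 rose and 8 lincRNAs fell, of which Gm9946 fell most. The 3 that rose are 3.49% of the 86, beside 10.0% of all genes tested that were called higher, and the 8 that fell are 9.30%, beside 8.23% called lower. Over the 86 the median log2 difference was -0.20, against -0.02 over all genes tested, and 68.6% against 51.8% lay below 0. All 3 tMCAO libraries lay above all 3 sham libraries for 11 lincRNAs, beside 25.0% of all genes, and below them for 27, beside 24.1%. Among protein-coding genes with a mean above 50 the median was -0.01, and among lincRNAs with means of 5 to 50 it was -0.16.

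Morrbid had 292, 180 and 170 normalized counts in the 3 tMCAO ipsilateral libraries at 24 h and 82, 90 and 77 in the sham libraries. The tMCAO values stood apart from every library of the other 7 groups, in which the highest value was 119. The log2 difference was 1.31 (SE 0.22, adjusted p = 1.8e-04), a 2.49-fold higher level on the log2(normalized count + 1) scale. Its convergent neighbour Bcl2l11, at a distance of 15.8 kb, had 349, 356 and 279 against 448, 403 and 477 (log2 -0.44, adjusted p = 0.0173) and did not pass the limit on the difference. Morrbid is known from myeloid cells, and the panel of 7 neutrophil and monocyte genes lay at 9.48 to 10.17 in these tMCAO libraries against 6.51 to 7.80 in sham, with 6 of the 7 called higher. At 7 d the panel lay at 7.40 to 9.65 in tMCAO ipsilateral libraries and at 5.90 to 8.32 in sham, with 2 genes called higher. Morrbid then had a mean of 92.00 against 76.00 and was not called (log2 0.27). The part of these cells in the Morrbid values was not tested.

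Snhg6, the host of the small nucleolar RNA Snord87, had 294, 329 and 257 normalized counts after tMCAO and 140, 139 and 152 after sham surgery. These tMCAO libraries were again the highest of all 24. The log2 difference was 1.02 (SE 0.18, adjusted p = 3.0e-04). Snhg6 overlaps the coding gene Mcmdc2 on the opposite strand. Of the 5 snoRNA host genes among the 86, it alone passed the test at 24 h. Snhg12 had 253, 221 and 192 against 163, 164 and 183, without overlap but with an adjusted p of 0.129. The values for Snhg20 were 76, 77 and 80 against 76, 58 and 59, with an adjusted p of 0.531. Snhg18 had 263, 239 and 397 against 334, 439 and 388 (adjusted p = 0.0879), while Sema5a, the coding gene 0.1 kb away on the other strand, fell by 0.97 on the log2 scale (adjusted p = 0.00425).

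Gm26917 had 1180, 1278 and 961 normalized counts in the tMCAO libraries and 422, 432 and 642 in sham, a log2 difference of 1.21 (SE 0.34, adjusted p = 0.0113). Groups did not overlap here, yet sham contralateral 7 d replicates 1 and 3 had 1244 and 1081, as high as after tMCAO. These were the libraries in which Gm42418 was highest, and Gm26917 (chr17:39843013-39846341) is annotated upstream of and next to Gm42418 (chr17:39846958-39848788) on the same strand. Gm42418 itself had 30647, 22478 and 30286 against 22390, 18852 and 28521 in the ipsilateral comparison at 24 h (log2 0.26, adjusted p = 0.681). The part of ribosomal RNA-like reads in the Gm26917 values was not tested.

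Among the lincRNAs that fell at 24 h, Gm9946 had 22, 42 and 19 normalized counts against 101, 58 and 94 in sham, a log2 difference of -1.62 (SE 0.28, adjusted p = 3.4e-04). D730003I15Rik, which lies 6.4 kb from the stress response gene Atf3 in the divergent direction, had 37, 33 and 56 against 79, 79 and 80 (log2 -0.94, SE 0.22, adjusted p = 0.00370). Atf3 had 397, 311 and 237 against 179, 350 and 327, so that its groups overlapped (log2 0.17, adjusted p = 0.807). D730003I15Rik was between 72 and 158 in the 7 other groups and in none of their libraries as low as after tMCAO at 24 h. Gm13861, inside the gene for the actin-binding protein Cald1 on its opposite strand, had 231, 150 and 307 against 369, 447 and 434 (log2 -0.91, SE 0.19, adjusted p = 0.00147). Cald1 had 8372, 6696 and 10514 against 9685, 10513 and 9554 and was not called (log2 -0.24, adjusted p = 0.362). Gm16576, which starts 0.2 kb from the nuclear envelope gene Sun2, had 29, 30 and 42 against 74, 59 and 65 (log2 -0.96, SE 0.23, adjusted p = 0.00419), and Sun2 was not called (log2 -0.45).

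In the same tMCAO libraries the panel of 6 oligodendrocyte genes lay at 9.82 to 10.33 against 10.72 to 10.91 in sham, with 2 genes called lower, and that of 6 astrocyte genes at 9.83 to 10.38 against 10.37 to 11.07, with 3 called lower. Their part, and that of the neuronal genes described with the 7 d results, in the falls at 24 h was not tested. The remaining falls at 24 h were less firm. 9930038B18Rik had 48, 41 and 73 against 91, 92 and 106 (log2 -0.86, adjusted p = 0.0123), and it lost the call without tMCAO replicate 2 (log2 -0.69, adjusted p = 0.0721). 6330403K07Rik had 135, 104 and 77 against 174, 219 and 204 (log2 -0.94, adjusted p = 0.0438) but kept the call only when tMCAO replicate 1 was the library left out, with log2 differences from -1.03 to -0.74 and adjusted p from 0.0695 to 0.150 without each of the 5 others. For AC112680.3 (log2 -0.81, adjusted p = 0.0456) leaving out any library but tMCAO replicate 3 ended the call (log2 -0.83 to -0.54). The same held for Gm45495 (log2 -0.65, adjusted p = 0.0437) and any library but sham replicate 1 (log2 -0.70 to -0.45). Without tMCAO replicate 2 the count of calls at 24 h was 7 in place of 11, with 4 lower.

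**Figure D2:**
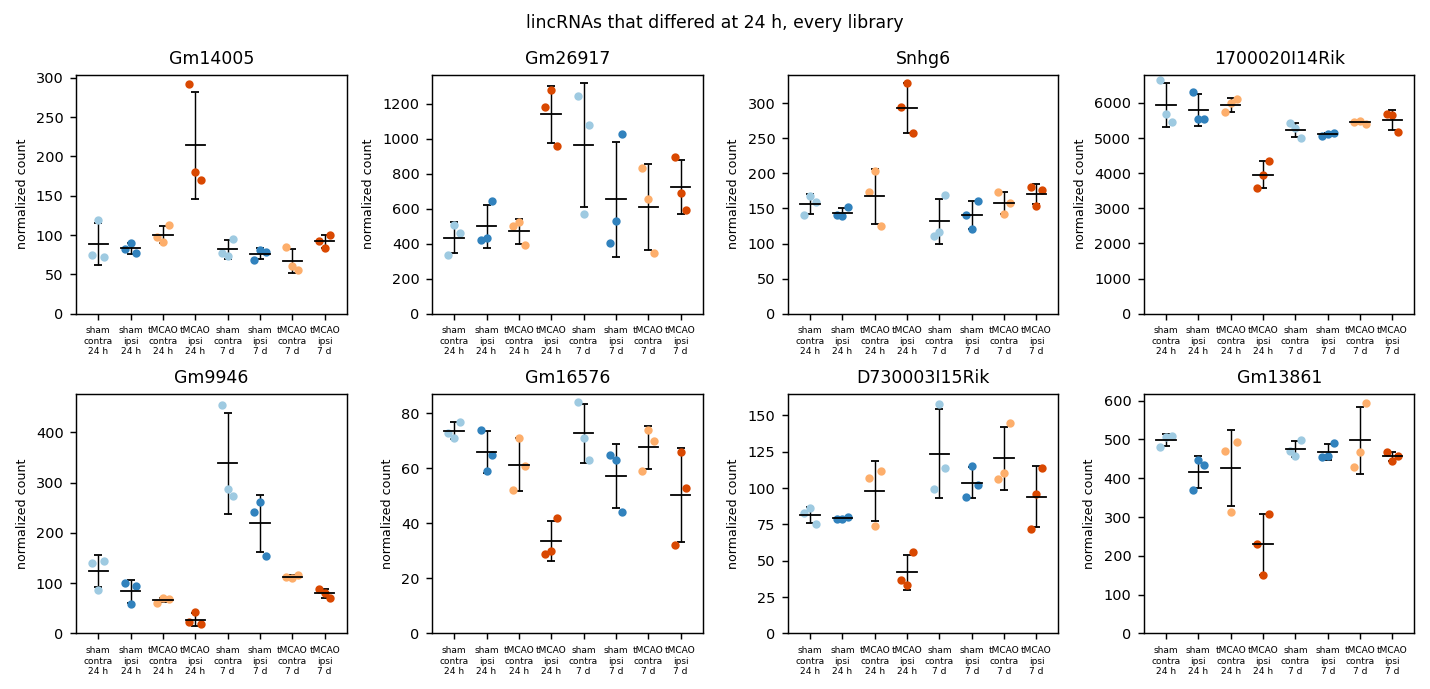
Normalized counts of 8 lincRNAs in every library by group, with the mean (horizontal line) and SD (bars) of 3 libraries. For Morrbid (Gm14005) and Snhg6, the 3 tMCAO ipsilateral 24 h libraries lie above all others, and for D730003I15Rik they lie below all others.

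Cyrano, the highest lincRNA after Gm42418, moved by little but with a narrow spread. Its normalized counts were 3590, 3946 and 4341 in the tMCAO ipsilateral libraries at 24 h and 6325, 5529 and 5543 in sham. No library of the other 7 groups was below 5015. The log2 difference of -0.55 (95% interval -0.74 to -0.37, adjusted p = 1.4e-04) stayed short of the limit of 1.5-fold, so that Cyrano was not called. Against the contralateral hemispheres, with 5734, 6008 and 6112, it was -0.59 (adjusted p = 8.8e-05) and passed the limit. That call was lost without contralateral replicate 2 or 3 (-0.58 and -0.57) or ipsilateral replicate 1 (-0.52), each with an adjusted p of at most 0.00127, and once values were adjusted for exon length and GC (log2 -0.21, adjusted p = 0.0401). That adjustment also reduced the difference from sham at 24 h, to -0.20 (adjusted p = 0.0474). At 7 d Cyrano had 5687, 5647 and 5181 against 5068, 5111 and 5141 (log2 0.11, adjusted p = 0.463). Its convergent neighbour Oip5, a centromere gene 2 kb away, was called lower at 24 h as well (log2 -1.42, adjusted p = 0.0441), from few counts that overlapped, with 1, 5 and 14 against 17, 9 and 18.

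The abundant nuclear lincRNAs gave no call at either time. Malat1 had 1472, 1551 and 1428 normalized counts after tMCAO at 24 h and 2778, 1806 and 1879 after sham surgery (log2 -0.51, 95% interval -1.27 to 0.25, adjusted p = 0.296). For Neat1 the values were 1304, 1578 and 1743 against 1721, 1156 and 1462 (log2 0.10, interval -0.57 to 0.77). Both varied more between the libraries of a group than Cyrano did, and the intervals leave room for a difference past the limit. Without single libraries the estimate for Neat1 ran from -0.05 to 0.24. At 7 d Malat1 had 892, 1095 and 1245 against 1100, 943 and 999 (log2 0.08, adjusted p = 0.918). Norad had 855, 907 and 826 against 1007, 1088 and 1093 (log2 -0.30, adjusted p = 0.107), with no overlap, and at 7 d 803, 877 and 1091 against 1161, 1139 and 1472 (log2 -0.45, adjusted p = 0.0311), short of the limit on the difference. Of 20 genes for paraspeckle proteins, 2 were called higher and none lower at 24 h (median log2 0.31), and of 15 nuclear speckle genes 1 was called higher (median 0.05). Beside these stand 10.0% of all genes tested that were called higher, 8.23% called lower and a median of -0.02, so the counts called higher do not exceed the share of all genes. Ftx, from the X-inactivation centre, had 58, 52 and 72 against 120, 123 and 62 (log2 -0.68, adjusted p = 0.110), with overlap.

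The second comparison set stroke against sham in ipsilateral vessels at 7 d. Mir124a-1hg, 9330102E08Rik, Miat, Gm10419, Meg3, 6330403K07Rik, 2900052N01Rik and Gm9946 fell, whereas Gm39822, Epb41l4aos, Bvht, 2010320M18Rik and Gm35572 rose. From Mir124a-1hg (log2 -4.02) to 6330403K07Rik (-1.81), the falls were larger than the largest called at 24 h, -1.62 for Gm9946. Those of 2900052N01Rik (-1.59) and Gm9946 (-1.42) at 7 d were not. The 5 that rose are 5.81% of the 86, beside 3.27% of all genes called higher, and the 8 that fell are 9.30%, beside 9.95% called lower. The median log2 difference of the 86 was 0.07, against 0.02 over all genes tested. Groups did not overlap for 10 lincRNAs in the higher direction, beside 13.4% of all genes, and for 15 in the lower direction, beside 16.6%.

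Mir124a-1hg, a host transcript of the neuronal microRNA miR-124, had 2, 3 and 10 normalized counts in the 3 tMCAO ipsilateral libraries at 7 d and 81, 66 and 101 in the sham libraries. In the other 6 groups it ran from 37 to 122, so the 3 libraries stood far below all others. The log2 difference was -4.02 (SE 0.39, adjusted p = 2.6e-06), the 7th lowest of 15982 genes tested. With so few counts the added count of 1 makes this difference smaller than the ratio of the raw values. Miat had 9, 15 and 56 against 109, 110 and 134 (log2 -2.50, SE 0.44, adjusted p = 4.6e-04). Meg3, a maternally expressed imprinted RNA and host of miR-770, had 150, 215 and 686 against 1091, 1068 and 1118 (log2 -1.96, SE 0.39, adjusted p = 0.00150). Neither of the last pair overlapped between the groups, but within the tMCAO group replicate 3 was several times as high as the others.

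The less known lincRNAs of this set behaved likewise. 9330102E08Rik had 10, 10 and 17 normalized counts after tMCAO and 62, 69 and 102 after sham surgery (log2 -2.57, adjusted p = 9.9e-06). For Gm10419 the values were 8, 12 and 26 against 73, 65 and 75 (log2 -2.29, adjusted p = 1.7e-04). 6330403K07Rik, the gene with a protein-coding annotation, had 47, 74 and 78 against 214, 206 and 274 (log2 -1.81, adjusted p = 9.2e-04), and 2900052N01Rik had 28, 37 and 47 against 114, 88 and 140 (log2 -1.59, adjusted p = 0.00175). In all 4 the groups were clearly apart, and the call held without any single library of the compared groups. None of these genes except 6330403K07Rik had been called at 24 h. Of 5 microRNA hosts among the 86, taken as the 4 with an annotated microRNA inside (Meg3, Ftx, Gm3764 and Snhg20) and Mir124a-1hg by its name, 2 were called lower at 7 d, Mir124a-1hg and Meg3, and none at 24 h.

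**Figure D3:**
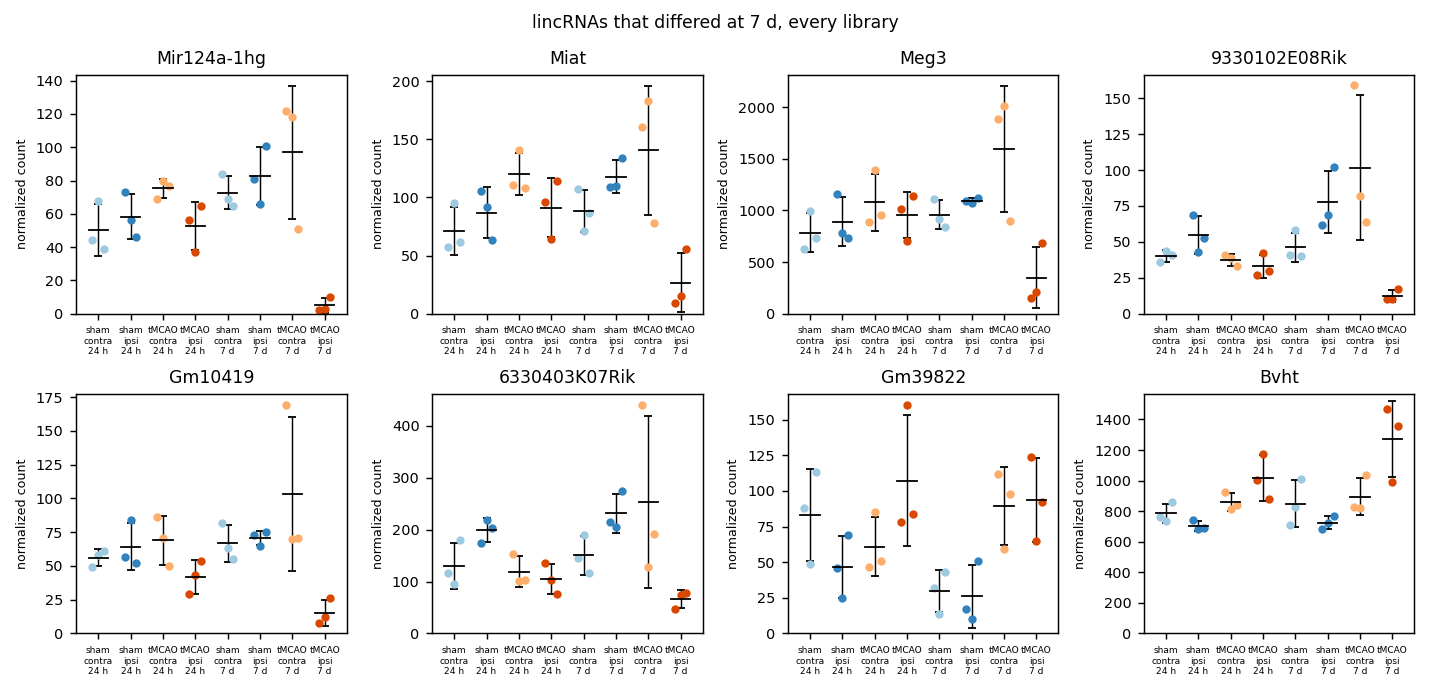
Normalized counts of 8 lincRNAs in every library by group, with the mean (horizontal line) and SD (bars) of 3 libraries. For Mir124a-1hg, Miat, 9330102E08Rik and Gm10419 the 3 tMCAO ipsilateral 7 d libraries are the lowest of all 24, and for Bvht the highest values, 1470 and 1355, are in that group.

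The neuronal marker genes moved with these lincRNAs. The panel of 9 genes had log2 means of 6.95, 7.03 and 7.66 in the tMCAO ipsilateral libraries at 7 d against 9.34, 9.80 and 10.00 in sham, with 8 of 9 called lower and no gene at 0 in any library. Snap25, which encodes a synaptic vesicle fusion protein, had 83, 104 and 127 normalized counts against 948, 1232 and 1231. Stmn2, the exception, had 1769, 2095 and 1944 against 1733, 1993 and 1783. Replicate 3 was the highest of the 3 tMCAO libraries in the panel and also for Mir124a-1hg, Miat, Meg3, 9330102E08Rik, Gm10419, 2900052N01Rik and 6330403K07Rik. Choroid plexus genes also moved, with a panel mean of 4.94 to 6.77 against 8.19 to 8.87 and 3 of 6 called lower. The endothelial panel overlapped between the groups (14.83 to 15.12 against 14.85 to 14.95). The panels of astrocytes (9.63 to 9.96 against 10.08 to 11.31, 2 of 6 genes called lower), fibroblasts (9.72 to 9.79 against 10.34 to 11.12, 2 of 5) and pericytes and mural cells (12.77 to 12.96 against 13.19 to 13.50, 1 of 7) were lower without overlap as well. The part of RNA of any of these cells in the results was not tested.

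At 24 h the lincRNAs of this set differed in how they stood beside the neuronal panel. The panel was already lower after tMCAO, at 8.22, 8.59 and 8.15 against 9.46, 9.35 and 9.35, with 5 of 9 genes called lower. Mir124a-1hg had 56, 37 and 65 normalized counts against 73, 56 and 46 (log2 -0.16, 95% interval -0.97 to 0.66). Miat had 96, 64 and 114 against 106, 92 and 63 (log2 0.06, interval -0.86 to 0.98). For Meg3 the values were 1012, 705 and 1139 against 1163, 784 and 730 (log2 0.10, interval -0.72 to 0.92). These 3 overlapped between the groups, while the panel differed by -1.07 without overlap. The 4 others had lower estimates at 24 h: 6330403K07Rik was called (log2 -0.94), 9330102E08Rik had 27, 42 and 30 against 69, 43 and 53 without overlap or call (log2 -0.72, adjusted p = 0.0751), and Gm10419 (-0.62) and 2900052N01Rik (-0.42) overlapped. Beside the panel's difference of -2.50 at 7 d, Mir124a-1hg differed by -4.02, 9330102E08Rik by -2.57, Miat by -2.50, Gm10419 by -2.29, Meg3 by -1.96, 6330403K07Rik by -1.81 and 2900052N01Rik by -1.59.

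**Figure D4:**
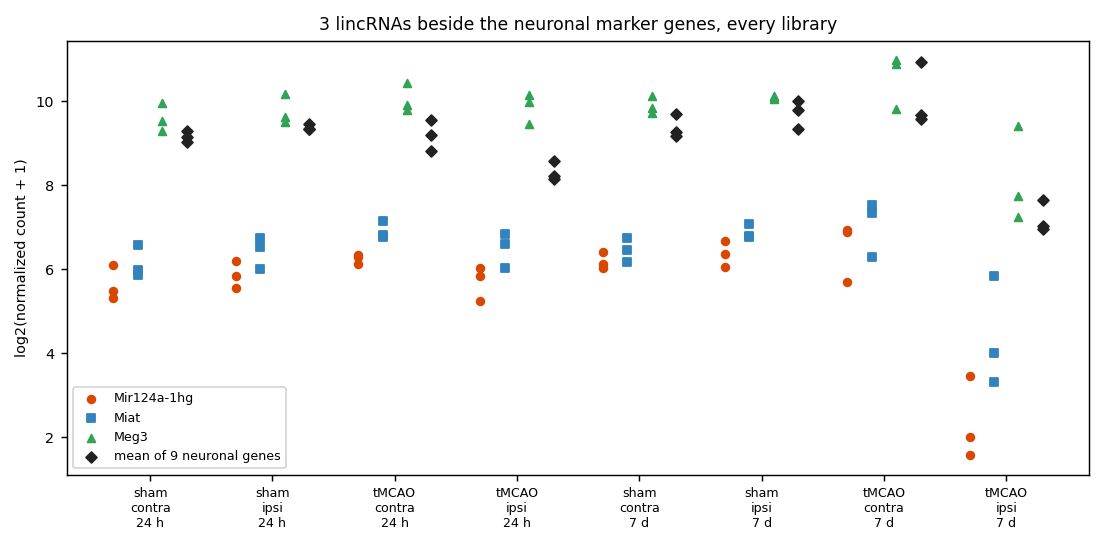
Levels of Mir124a-1hg, Miat and Meg3 and the mean of the 9 neuronal genes, as log2(normalized count + 1), in every library of the 8 groups. In the tMCAO ipsilateral group at 24 h the panel is lower than in sham while the 3 lincRNAs overlap with sham; at 7 d all 4 are lower.

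Of the lincRNAs that rose at 7 d, Bvht had 1470, 993 and 1355 normalized counts against 686, 720 and 771 in sham (log2 0.79, SE 0.14, adjusted p = 6.1e-04). At 24 h it had 1001, 1172 and 878 against 744, 684 and 687, higher in each tMCAO library than in any sham library but short of the limit (log2 0.52, adjusted p = 0.0108). The highest value elsewhere was 1034, in a contralateral library, so single libraries of other groups reached the range after tMCAO. With values adjusted for exon length and GC the difference at 7 d was 0.47 (adjusted p = 0.00791) and no longer passed the limit. Gm39822 had 124, 65 and 92 against 17, 10 and 51 (log2 2.07, SE 0.52, adjusted p = 0.00833), and the call was lost without sham replicate 2 (log2 1.58, adjusted p = 0.0596). Its 24 h values of 78, 160 and 84 against 46, 25 and 69 gave no call, and sham contralateral libraries at 24 h had up to 113.

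Epb41l4aos, a snoRNA host, had 166, 104 and 175 normalized counts against 96, 69 and 79 (log2 0.84, adjusted p = 0.0152). It lost the call without sham replicate 2 (log2 0.72), without tMCAO replicate 1 (0.74), without tMCAO replicate 3 (0.70) and with the length and GC adjustment (0.52, adjusted p = 0.108). 2010320M18Rik, which starts 0.1 kb from Pik3r2, a regulatory subunit gene of phosphoinositide 3-kinase, had 221, 171 and 221 against 125, 115 and 120 (log2 0.75, adjusted p = 0.0126). It missed the adjusted p without tMCAO replicate 1 (log2 0.69, adjusted p = 0.0582) and the limit on the difference with the length and GC adjustment (0.51). Gm35572 had 340, 289 and 381 against 188, 174 and 242 (log2 0.74, adjusted p = 0.0222), and the call was lost without sham replicate 1 or 2 or tMCAO replicate 1 or 3 (log2 0.65 to 0.73, adjusted p 0.0681 to 0.0927). Its sham ipsilateral mean was lower at 7 d than at 24 h, 201.3 against 330.7 (log2 -0.72, adjusted p = 0.134, not called). Contralateral sham means were 221.0 and 322.0. The tMCAO ipsilateral mean at 7 d, 336.7, was thus near that of sham at 24 h. Genes of cell division were higher in the same tMCAO libraries, with a panel mean of 5.21 to 5.71 against 3.01 to 3.45 and 4 of 4 tested genes called higher, and their part in these rises was not tested.

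The calls of the 2 time points were then set side by side, as a description of the 86 alone. No lincRNA was called higher at both times, none changed direction between them, and Gm9946 and 6330403K07Rik were called lower at both. Of the 86, 64 were called at neither time. Such combinations were not counted over all genes, so these numbers do not set lincRNAs apart from other genes. The 2 comparisons have no libraries in common. Whether an effect differed between the times was tested as an interaction, and 10 lincRNAs passed: 4 with a higher effect at 7 d, beside 2.43% of all genes, and 6 with a lower one, beside 5.68%. Mir124a-1hg had the largest such difference (log2 -3.86, SE 0.55, adjusted p = 2.6e-04), followed by Miat (-2.56, adjusted p = 0.0130). In the higher direction Gm35572 led (1.22, adjusted p = 0.0162), with sham itself lower at 7 d than at 24 h (log2 -0.72). Cyrano showed a return from its lower level at 24 h (0.66, SE 0.12, adjusted p = 0.00236). Within tMCAO ipsilateral vessels it rose by 0.48 from 24 h to 7 d, short of the limit. Its sham ipsilateral level was lower at 7 d (log2 -0.18, not called). These 4 interaction calls held without any single library, although that for Cyrano fell under the limit with the length and GC adjustment (0.50).

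**Figure D5:**
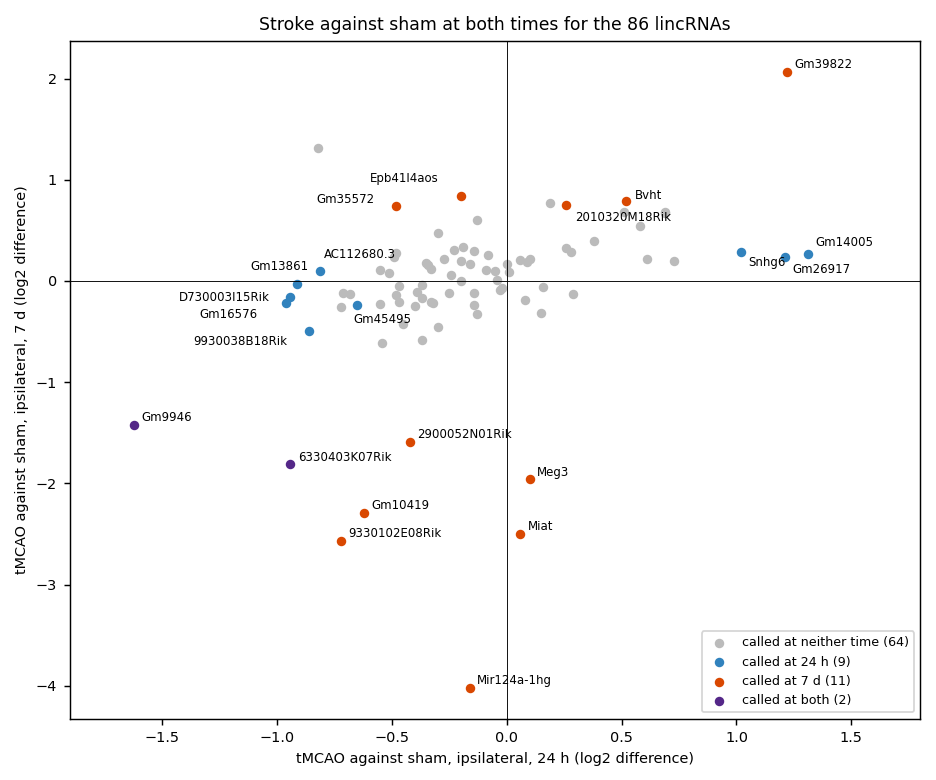
Log2 difference between tMCAO and sham in ipsilateral vessels at 24 h (horizontal) and 7 d (vertical) for the 86 lincRNAs, with colour by call. 64 were called at neither time, 9 at 24 h, 11 at 7 d and 2, Gm9946 and 6330403K07Rik, at both.

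Ipsilateral vessels were also compared with contralateral vessels after tMCAO, using the same ipsilateral libraries as above and a fit that did not pair the hemispheres. At 24 h, 3 lincRNAs were higher, beside 8.51% of all genes, and 9 were lower, beside 5.14%. The 3 higher ones were again Gm26917 (log2 1.27, adjusted p = 0.00942), Morrbid (1.04, adjusted p = 0.00161) and Snhg6 (0.83, adjusted p = 0.00207). The lowest were Gm9946 (log2 -1.32, adjusted p = 0.00218), Gm16499 (-1.27, adjusted p = 0.0275) and D730003I15Rik (-1.21, adjusted p = 5.6e-04). Gm16499 had 30, 19 and 38 normalized counts against 73, 48 and 92 contralaterally. Its call was lost without contralateral replicate 1 or 3 or ipsilateral replicate 1 or 2 (adjusted p 0.0606 to 0.129). Over the 86, the median log2 difference was -0.25 and 75.6% lay below 0, against -0.02 and 51.6% over all genes. Without ipsilateral replicate 1 the number of calls fell from 12 to 7, with 4 lower. A fit with the library number as a block also called Gm13056 (log2 -0.66, adjusted p = 0.0309), Gm11827 (-1.14, adjusted p = 0.00202) and Gm39822 (0.78, adjusted p = 0.00809).

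At 7 d, 1 lincRNA was higher in the ipsilateral vessels, beside 3.03% of all genes, and 8 were lower, beside 9.98%. 9530082P21Rik, which overlaps Flywch1 on the opposite strand, had 250, 293 and 351 normalized counts against 128, 206 and 139 (log2 0.93, adjusted p = 0.0190). Its call was lost without contralateral replicate 1 or 3 or ipsilateral replicate 3 (log2 0.80 to 0.86). Mir124a-1hg had 122, 118 and 51 in the contralateral libraries and differed by -4.16 (adjusted p = 8.5e-07), 9330102E08Rik by -2.88 (adjusted p = 2.0e-06) and Gm10419 by -2.70 (adjusted p = 2.3e-05). Contralateral replicate 1 had the highest value of the 24 libraries for Mir124a-1hg, for 9330102E08Rik with 159, Gm10419 with 169, 6330403K07Rik with 441, 2900052N01Rik with 240 and Gm3764 with 456, and its neuronal panel mean of 10.93 was the highest as well. Gm3764, the host of the neural microRNA miR-9, had 33, 73 and 252 ipsilaterally against 456, 327 and 157, with overlap. Its difference of -1.74 (adjusted p = 0.0232) lost the call without contralateral replicate 1 or 2 or ipsilateral replicate 1 or 2 (log2 -1.64 to -1.07). Against sham at 7 d Gm3764 was called on neither side. Its ipsilateral mean was 119.3 against 131.7 in sham (log2 -0.61, adjusted p = 0.477). The contralateral mean was 313.3 against 91.00 (log2 1.65, adjusted p = 0.335).

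Between 24 h and 7 d after tMCAO, 8 lincRNAs were higher at 7 d in ipsilateral vessels, beside 3.72% of all genes, and 8 were lower, beside 8.44%. Gm9946 rose from 22, 42 and 19 to 89, 80 and 70 (log2 1.57, adjusted p = 8.3e-04) and D730003I15Rik from 37, 33 and 56 to 72, 96 and 114 (log2 1.16, adjusted p = 0.00127). For Gm13056 the values went from 35, 27 and 55 to 101, 69 and 81 (log2 1.12, adjusted p = 0.00679). Groups did not overlap in any of the 3. Mir124a-1hg fell by 3.36 on the log2 scale, Miat by 2.10, Meg3 by 1.73 and Morrbid by 1.17. When the spread was estimated from these 2 groups alone, Miat and Meg3 had adjusted p values of 0.0514 and 0.0533 and were not called. AW112010, the immune cell RNA, was called higher at 7 d (0.71, adjusted p = 0.0352) although its libraries overlapped, with 552, 723 and 814 at 24 h and 1351, 1452 and 730 at 7 d. The call was lost without 24 h replicate 1 or 2 or 7 d replicate 1 or 2 (log2 0.53 to 0.75). AW112010 was also higher at 7 d than at 24 h after sham surgery, without a call. Its means were 1014 against 687.3 ipsilaterally (log2 0.55, adjusted p = 0.283) and 1124 against 817.0 contralaterally (log2 0.45). Between tMCAO and sham ipsilateral vessels it differed by 0.00 at 24 h and 0.17 at 7 d.

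The 7 comparisons between control groups gave calls for a single lincRNA, Gm9946, which was higher at 7 d than at 24 h after sham surgery. In ipsilateral vessels it had 241, 262 and 154 normalized counts at 7 d and 101, 58 and 94 at 24 h (log2 1.37, adjusted p = 0.0260), beside 0.300% of all genes called higher. Contralaterally it had 454, 287 and 274 against 141, 87 and 145 (log2 1.43, adjusted p = 0.0266), beside 0.232%. In each of these, 5 of the 6 libraries ended the call when left out, all but sham ipsilateral 7 d replicate 3 with log2 differences of 1.12 to 1.52, and all but sham contralateral 7 d replicate 3 with 1.20 to 1.56. At 7 d its contralateral values after tMCAO, 112, 111 and 116, were below every sham library (log2 -1.54, adjusted p = 0.0611). The pattern of Gm9946 was thus not limited to the ipsilateral hemisphere: in each of the 4 pairs of surgery and side the mean was higher at 7 d. At an unadjusted p under 0.05, the 7 comparisons held between 1 and 16 of the 86 lincRNAs, beside 359 to 2637 of all 15982 genes tested. Both the 16 and the 2637 were in the comparison of contralateral vessels between 7 d and 24 h after tMCAO. Of the 86, 53 were called in none of the 13 comparisons, a number that was not counted over all genes.

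Position relative to coding genes was set beside the calls. Of the lincRNAs called at 24 h, 9 had a tested nearest coding gene, and none of these genes was called at 24 h. Of all genes tested, 10.0% were called higher and 8.23% lower at that time, so few calls would be awaited among 9 genes. The same numbers of lincRNAs and neighbours held at 7 d, beside 3.27% of all genes called higher and 9.95% called lower. Conversely, Ms4a8a, a membrane protein gene 16.9 kb from AW112010, was higher at 24 h (log2 4.34, adjusted p = 6.4e-04), while AW112010 had 552, 723 and 814 against 730, 720 and 612. Kif13b, a kinesin gene 53.3 kb from Mir124a-1hg, was lower at 24 h (log2 -0.63, adjusted p = 0.00320) and not at 7 d (-0.02). Of the 45 lincRNAs that overlap a coding gene or lie within 5 kb of one, 1 was called lower at 7 d, and of the 41 farther away 7 were. At 24 h it was 5 of the 45 and 3 of the 41. These counts have no test.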

How the data were processed

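Poly(A) RNA of microvessels from 24 pools (8 groups of 3) was sequenced by the authors. Per the labels and the study's methods, reads were trimmed and aligned to mm10 with STAR 2.5.2b, assigned to genes with featureCounts 1.5.1, leaving out reads that fit several genes, and normalized with DESeq2 1.6.2 (versions from the submitters' processing notes; the study's methods name other versions of the aligner and the normalization package). The deposited values are such normalized counts rounded to whole numbers by the authors, and were treated as a score: they are not raw counts, depth is unknown, and no count model was used. Whether counting used the strand is not given in the sources used here.

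All 15982 genes with a mean above 5 were fitted on log2(value + 1) with limma 3.58.1 (trend, R 4.3.3) over the 8 groups, and p-values were Benjamini-Hochberg adjusted over all of them. Calls needed an adjusted p under 0.05 and a 1.5-fold difference. Two-sided p-values in the report come from limma. The script was tested on simulated data. The lincRNAs, gene lists and named genes were chosen with earlier results of these data known. Named genes were the 5 highest, those with the largest called differences in each comparison, lincRNAs with published names, the neighbours of the selection limit and nearest coding genes. 9930038B18Rik, AC112680.3, Gm45495, 2900052N01Rik, Gm26782, Dubr, 4632404H12Rik and AW112010 were named after their values were seen. Gene positions and transcripts are from GENCODE M21, promoters and microRNAs from RefSeq (GRCm38.p6, the files' build). RefSeq matched 65 of the 86, with a promoter for 51 outside chromosome 18. Alternatives were the added count, the filter, centring, an exon length and GC adjustment, the groups fitted, a replicate block and leaving out each library. The authors' own comparisons were not used.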

Additional observations from a re-analysis of the deposited data

Results flagged for a closer look

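The effect of tMCAO against sham in ipsilateral vessels differed between 24 h and 7 d for 10 lincRNAs by an interaction term in limma, given here as the log2 effect at 7 d minus that at 24 h. It was -3.86 for Mir124a-1hg (-0.16 at 24 h, -4.02 at 7 d, adjusted p = 2.6e-04), -2.56 for Miat (0.06 and -2.50, adjusted p = 0.0130), -2.05 for Meg3 (0.10 and -1.96, adjusted p = 0.0239), -1.85 for 9330102E08Rik (-0.72 and -2.57, adjusted p = 0.00906) and -1.68 for Gm10419 (-0.62 and -2.29, adjusted p = 0.0431). For Morrbid (Gm14005) it was -1.04 (1.31 and 0.27, adjusted p = 0.0345). In the other direction it was 1.22 for Gm35572 (-0.48 and 0.74, adjusted p = 0.0162), 1.04 for Epb41l4aos (-0.20 and 0.84, adjusted p = 0.0464), 0.88 for Gm13861 (-0.91 and -0.03, adjusted p = 0.0430) and 0.66 for Cyrano (1700020I14Rik, -0.55 and 0.11, adjusted p = 0.00236).

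Leaving out 1 of the 12 libraries ended several of these calls. Meg3 was lost without sham 24 h replicate 3, tMCAO 24 h replicate 1 or tMCAO 7 d replicate 1 or 2 (-1.99 to -1.60, adjusted p 0.0538 to 0.0589). Gm10419 was lost without 9 of the 12, all but sham 24 h replicate 2, tMCAO 24 h replicate 1 and tMCAO 7 d replicate 3 (adjusted p 0.0583 to 0.0984). Morrbid was lost without sham 24 h replicate 1 or 3, sham 7 d replicate 2 or 3, tMCAO 24 h replicate 1 or tMCAO 7 d replicate 2 (adjusted p 0.0667 to 0.110). Gm13861 was lost without any but tMCAO 24 h replicate 3 (adjusted p 0.0561 to 0.109). Epb41l4aos was lost without any but sham 7 d replicate 1, tMCAO 24 h replicate 2 and tMCAO 7 d replicate 2 (adjusted p 0.0527 to 0.116).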

How the results depend on the processing

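No call changed direction under any alternative run. Of the calls, 7 of 11 at 24 h, 8 of 13 at 7 d (all that fell), 5 of 12 and 6 of 9 between hemispheres at 24 h and 7 d, 9 of 16 between the times and 4 of 10 interactions held under every alternative and without each library. Without the limit on the difference 17 lincRNAs passed at 24 h (4 higher, 13 lower). With the length and GC adjustment the control comparisons held 1 call in place of 2. Leaving out each library gave 7 to 13 calls at 24 h, 7 to 15 between hemispheres at 24 h, 5 to 9 interactions and 1 to 4 calls in the control comparisons. The 7 at 24 h came without tMCAO ipsilateral 24 h replicate 2, the 7 between hemispheres without its replicate 1, 5 or 6 interactions without sham ipsilateral 24 h replicate 1 or 3, sham ipsilateral 7 d replicate 2, tMCAO ipsilateral 24 h replicate 1 or tMCAO ipsilateral 7 d replicate 2, and the 4 without sham contralateral 7 d replicate 3. Signs turned only for log2 differences near 0 that were not called: without single libraries Malat1 at 7 d ran from -0.03 to 0.21, Ftx at 7 d from -0.39 to 0.07, and at 24 h Neat1 from -0.05 to 0.24, Meg3 from -0.05 to 0.30, Miat from -0.15 to 0.30 and Mir124a-1hg from -0.33 to 0.07, and Miat at 24 h was -0.00091 under median centring. The causes were not tested. With only the compared groups in the fit, Gm39822 at 7 d had an adjusted p of 0.0508. Hemispheres share numbers in the titles. Same-numbered hemispheres correlated by 0.145 to 0.410 (24 h) and 0.325 to 0.467 (7 d) after sham surgery, above 0.1 in every pair, and there the replicate block gave 0 calls as did the fit without it. After tMCAO they correlated by 0.0658 to 0.360 and 0.0593 to 0.309, not above 0.1 in every pair, although in all 4 comparisons 6 of 6 libraries correlated best with their own number, a hint from the data that they pair. The replicate block gave 8 calls at 24 h, 14 at 7 d, 15 and 9 between hemispheres, 14 between the times, 10 interactions and 3 in the control comparisons, where it added Gm9946 between contralateral vessels of tMCAO and sham mice at 7 d (adjusted p = 0.0423). Between surgeries or times, however, equal numbers mark different mice, and the block is no pairing there. Same-numbered contralateral libraries of tMCAO and sham mice at 7 d correlated by -0.173 to 0.0470. Without sham contralateral 7 d replicate 1, left out after seeing the data, there were 9 calls at 24 h and 13 at 7 d. Values near 50 normalized counts and groups of 3 limit what could be called.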
